A study of Mus musculus with 6 samples.

Results

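The UDP-glucuronosyltransferases (Ugt genes) and cytosolic sulfotransferases (Sult genes) were examined in kidney RNA of WT and Selenbp1-KO mice. The members were all non-control probes whose gene name in the array files begins with Ugt1a, Ugt2a, Ugt3a, Ugt2b, or Sult followed by a family number and letter. This rule found 46 of 56605 probes, which read 33 of 37325 genes, namely 14 Ugt genes and 19 Sult genes. The 6 arrays held 3 WT samples (replicates 2, 3, and 4) and 3 Selenbp1-KO samples (replicates 1, 2, and 3). All were left kidneys of males aged 8 weeks that had fasted 20 h, and no group received dioxin or another agent. Both genotypes have the strain label C57BL/6J, and both were kept on standard chow. The WT mice were obtained from a supplier, and the Selenbp1-KO line was made in earlier work. The form of its allele and whether littermates served as controls are not given in the sources used here. The purpose of the comparison was to find the renal genes altered when Selenbp1 is lost.

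Glucuronosyltransferases are membrane enzymes of the endoplasmic reticulum that join glucuronic acid, taken from UDP-glucuronate, to drugs, bilirubin, steroids, fatty acids, and bile acids. Sulfotransferases are cytosolic enzymes that move a sulfate group from the activated donor PAPS to phenols, catecholamines, steroids, and bile acids. Both reactions make their substrates more soluble in water, and the kidney, above all the proximal tubule, uses them to prepare compounds for export into the urine. Selenbp1 itself was studied because dioxin, acting through the aryl hydrocarbon receptor, induces it, and the Ugt1a6 genes are classical targets of the same receptor.

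The stretches of DNA just upstream of Ugt2b genes are shown first, because the signals of 5 of these genes varied together from array to array. The first 4 are the 95 bases before the RefSeq start of each gene, on chromosome 5 of GRCm38.p6, all on the minus strand, at chr5:87140341-87140435 (Ugt2b5), chr5:87254789-87254883 (Ugt2b37), chr5:87424204-87424298 (Ugt2b38), and chr5:87092556-87092650 (Ugt2b36). Capitals mark the longest run that Ugt2b5, Ugt2b37, and Ugt2b38 have in common, or, in Ugt2b36, the part of it that is kept.
Ugt2b5: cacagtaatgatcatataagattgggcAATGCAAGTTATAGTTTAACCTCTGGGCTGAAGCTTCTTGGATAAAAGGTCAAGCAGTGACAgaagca
Ugt2b37: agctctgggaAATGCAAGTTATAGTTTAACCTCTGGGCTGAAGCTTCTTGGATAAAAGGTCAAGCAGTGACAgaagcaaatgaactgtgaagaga
Ugt2b38: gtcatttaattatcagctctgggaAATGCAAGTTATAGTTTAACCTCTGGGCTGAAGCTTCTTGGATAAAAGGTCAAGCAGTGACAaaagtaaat
Ugt2b36: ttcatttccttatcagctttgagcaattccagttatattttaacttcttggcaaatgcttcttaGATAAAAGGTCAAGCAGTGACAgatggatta
The run is 62 bases long and occurs in 3 of the 32851 RefSeq mouse promoters of 300 bases, those of the 3 genes. Its last 22 bases also stand in the promoter of Ugt2b36 and in no further promoter of the table. Aligned without gaps, the windows of Ugt2b37 and Ugt2b38 are identical at 97.5% of 81 bases, and those of Ugt2b38 and Ugt2b36 at 77.9% of 95 bases.

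The fifth gene that varied with them, Ugt2b35 (chr5:87000765-87000859, plus strand), and Ugt2b34, which did not (chr5:86906938-86907032, minus strand), lack the run, and their 95 bases have no capitals.
Ugt2b35: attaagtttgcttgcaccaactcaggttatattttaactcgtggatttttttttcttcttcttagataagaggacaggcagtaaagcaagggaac
Ugt2b34: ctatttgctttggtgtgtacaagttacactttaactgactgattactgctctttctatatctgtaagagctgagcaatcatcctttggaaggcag
Aligned without gaps, Ugt2b35 matches the windows of the 4 genes at 44.2% to 47.2% of the aligned bases, and Ugt2b34 at 48.2% to 52.3%. Such an alignment loses matches beyond an inserted or missing base, so these shares do not rank how related the windows are. The longest run of Ugt2b35 in common with Ugt2b36 is 14 bases, and with Ugt2b5, Ugt2b37, or Ugt2b38 it is 6. For Ugt2b34 these runs are 7 or 8 bases. Whether the 62-base run has a part in the array pattern was not tested. The letters AGGTCA, a site bound by many nuclear receptors, lie inside the shared run and, on either strand, in 16.3% of all promoters and in 10 of the 39 Ugt and Sult promoters. The core letters of the dioxin response element, GCGTG, were found in 6 of these 39 promoters, among them those of Sult1b1, Sult1d1, and Sult2b1, and in 32.4% of all promoters, searched in the same way. GTTAAT, letters from the site of the liver and kidney factor HNF1, was found in 13 of the 39 promoters and in 7.1% of all. None of the 13 was of a Ugt2b gene, but only these exact letters were searched. An HNF1 site spelled otherwise would not have been found. A match of letters describes the sequence only. The 39 promoters include those of genes without a member probe, such as Sult3a2 and, with GCGTG, Ugt1a5 and Ugt1a8. Of the 33 genes with member probes, 27 had a promoter in the table.

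The array probes decide what a Ugt1a signal means, since the Ugt1a genes share their last exons and differ in the first. The following 60-base probes, on the plus strand of chromosome 1 of mm9, the build of the array files, read the first exon of Ugt1a10 (chr1:89952780-89952839), the first exon of Ugt1a6b (chr1:90004249-90004308), and the shared end of the locus (chr1:90114900-90114959).
Ugt1a10 first exon: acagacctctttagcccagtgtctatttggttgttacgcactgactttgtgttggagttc
Ugt1a6b first exon: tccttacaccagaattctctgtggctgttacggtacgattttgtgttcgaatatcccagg
Ugt1a shared end: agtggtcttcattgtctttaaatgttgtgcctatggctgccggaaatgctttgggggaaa
The first probe is also listed in the files for Ugt1a9. Altogether 10 of the 46 probes are listed for more than 1 gene, so the name beside a value is that of the probe. The Ugt2b36 probe, which is also listed for Ugt2b37, is shown because it crosses an exon junction (minus strand of mm9, chr5:87495455-87509913).
Ugt2b36 probe: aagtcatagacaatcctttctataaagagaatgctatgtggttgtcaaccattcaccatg
The probes of Ugt2b37 and Ugt2b5 have 18 bases in common, and those of Sult2a1 and Sult2a4 have 36.

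By the first number of the array positions in the names of the deposited files, WT replicates 2 and 3 were at 1, here called slide side 1. WT replicate 4 and the 3 Selenbp1-KO replicates were at 2, here called side 2. These positions alone do not show whether all 6 arrays shared 1 slide. Whether the sides were hybridized or scanned apart is not given in the sources used here. Values are log2 signals relative to the 75th percentile of the array, so that 0 is that percentile. Selenbp1, the deleted gene, read 7.07, 7.02, and 7.02 in WT and 4.13, 3.98, and 4.10 in Selenbp1-KO, which matches every label. Between 51.8% and 55.5% of the spots on an array were well above background, and this flag of the scanner software decides below what counts as measured: a probe or gene is called measured where it carries the flag on all 3 arrays of a genotype or of both. A probe was called when its unadjusted p from limma was under 0.05, the criterion of the study's methods, and 4479 of 56097 probes tested (7.98%) were called. The median difference of all probes, Selenbp1-KO minus WT, was 0.11 under this scaling and 0.00 after quantile normalization. The shift differed with signal: the median was 0.38 over the 24331 probes with the flag on no array and 0.00 over the 28515 measured probes.

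No measured Ugt or Sult gene was called in Selenbp1-KO kidneys. Of the 33 genes, 20 were measured (12 Ugt and 8 Sult genes), and 0 of these 20 were called, with 0.0764 as the lowest unadjusted p from limma. Over all measured probes of the array, 5.65% were called. Of all 45 member probes tested (1 Sult2a6 probe was not detected on any array), 2 were called, both higher in Selenbp1-KO and both dim, against 7.98% of all probes (6.47% higher). Of all genes, 8.00% were called and 6.87% were called higher. They read Sult1e1 and Sult2a7 and are described with the dim genes. After Benjamini–Hochberg adjustment over all genes, 0 member genes passed, where 0.00357% of all probes did, and the lowest adjusted p from limma was 0.275.

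The bounds on the measured genes depended on the fit. With no block, their 95% confidence intervals had half-widths from 0.24 to 0.46 on the log2 scale. The widest limits of all 20 intervals were then −0.53 and 0.80, that is 0.692-fold and 1.74-fold. Each of these intervals was wider with slide side as a block, a fit that sets the Selenbp1-KO arrays against WT replicate 4 alone. With no block, differences were above 0 for 15 of the 20 genes and below 0 for 5, with a median of 0.10. Over their 27 measured probes the median was 0.08, beside 0.00 for all measured probes and 0.04 for the brightest 10% of all probes, which hold 10 of the 20 genes. The groups did not overlap for 1 of the 20 genes, Ugt2b38, where 17.6% of all measured probes did not overlap.

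**Figure D1:**
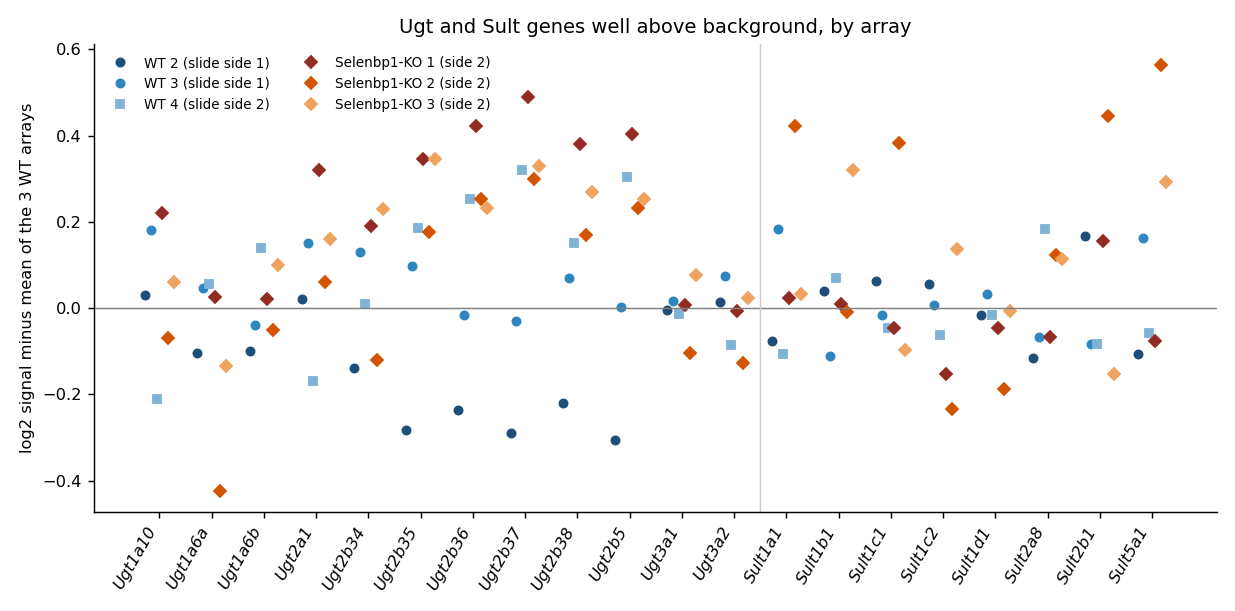
Log2 signal of each of the 20 measured Ugt and Sult genes (x axis) on each of the 6 arrays, minus the mean of the 3 WT arrays (y axis, log2 units); the symbols and colours of the legend mark the arrays. WT replicate 2 is the lowest array for the 5 genes from Ugt2b35 to Ugt2b5, while WT replicate 4 lies among or just below the Selenbp1-KO arrays.

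Of the Ugt2 family, which conjugates steroids, fatty acids, and bile acids, 7 of 9 genes were well above background, and the probes of 5 of them (Ugt2b35, Ugt2b36, Ugt2b37, Ugt2b38, and Ugt2b5) gave the same picture. Ugt2b37 had log2 signals of 3.58, 3.84, and 4.19 in WT replicates 2, 3, and 4, and of 4.36, 4.17, and 4.20 in Selenbp1-KO replicates 1, 2, and 3. WT replicates 2 and 3 were low, and WT replicate 4 was within the range of the Selenbp1-KO arrays. The difference was 0.37 (SE 0.17, 95% confidence interval −0.05 to 0.80, adjusted p = 0.275 by limma). For Ugt2b38, the values were 5.78, 6.07, and 6.15 in WT and 6.38, 6.17, and 6.27 in Selenbp1-KO, with the highest WT and the lowest Selenbp1-KO array 0.02 apart. This gave a difference of 0.27 (SE 0.14, interval −0.06 to 0.61, adjusted p = 0.303 by limma). Ugt2b5 read 2.66, 2.97, and 3.27 in WT against 3.37, 3.20, and 3.22 in Selenbp1-KO. Ugt2b36 read 2.47, 2.69, and 2.96 against 3.13, 2.96, and 2.94. Ugt2b35, whose gene lies on the opposite strand, read 0.33, 0.71, and 0.80 against 0.96, 0.79, and 0.96. In these 3 genes, too, WT replicate 4 overlapped the Selenbp1-KO arrays, and the differences were 0.30, 0.30, and 0.29, with unadjusted p of 0.134, 0.0940, and 0.111 by limma.

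The higher mean of these 5 genes in Selenbp1-KO rested on WT replicates 2 and 3, the 2 arrays of slide side 1. WT replicate 2 was the lowest and Selenbp1-KO replicate 1 the highest (alone or with replicate 3) of the 6 arrays in all 5 genes, and over all measured probes WT replicate 2 was the lowest array for 17.4%. WT replicate 4 stood 0.23 to 0.47 above the mean of the other WT arrays, and 22.6% of all measured probes showed a gap of at least the smaller size. With the slide side as a block, a fit that sets the 3 Selenbp1-KO arrays against WT replicate 4 alone, the 5 differences lay between −0.0008 and 0.12 in place of 0.27 to 0.37. Only 1 WT array therefore separates genotype from slide side. Without WT replicate 4, in turn, Ugt2b36, Ugt2b37, and Ugt2b5 were called, at 0.43, 0.53, and 0.45 (unadjusted p of 0.0196, 0.0103, and 0.0225 by limma). In that fit, however, 17585 of all 56097 probes were called, 94.4% of them higher in Selenbp1-KO, so such calls were not particular to these genes. Without WT replicate 2 the 5 differences were 0.15 to 0.23, with none called, where 2024 of all probes were called.

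**Figure D2:**
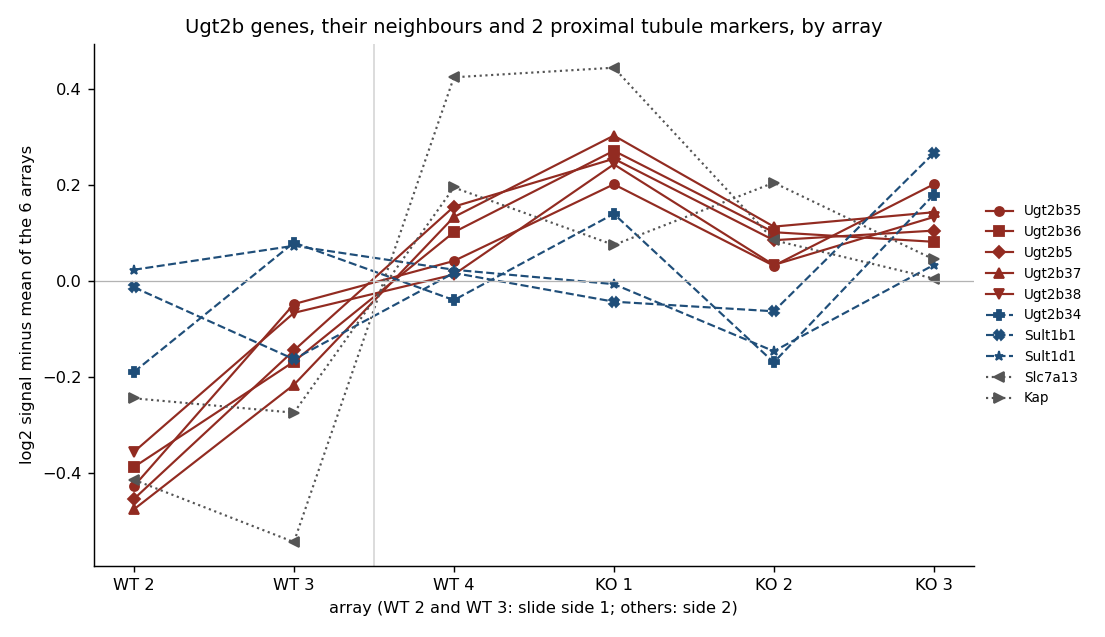
Log2 signal minus the mean of the 6 arrays (y axis) on each array (x axis) for 5 Ugt2b genes (solid red), 3 neighbouring genes of chromosome 5 (dashed blue), and the proximal tubule markers Slc7a13 and Kap (dotted grey). The 5 Ugt2b genes and both markers lie below their mean on the 2 arrays of slide side 1 and above it on the other 4, while Sult1d1 is not low there. Both markers were picked from a list of 10, of which only 5 had WT replicates 2 and 3 as their lowest arrays.

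Neighbouring genes did not all show this pattern. The probes of 12 member genes, among them all of the Ugt2 family and Sult1b1, Sult1d1, and Sult1e1, lie within 686 kb of chromosome 5 of mm9 (chr5:87318849-88005246), and 9 of these genes were well above background. Ugt2b34, at the edge of the cluster, read 1.85, 2.12, and 2.00 in WT and 2.18, 1.87, and 2.22 in Selenbp1-KO, a difference of 0.10 (SE 0.14). Ugt2a1, an enzyme known from the olfactory mucosa, read −2.41, −2.28, and −2.60 against −2.11, −2.37, and −2.27, a difference of 0.18 (SE 0.13). Its probe is also listed for Ugt2a2. Neither gene was called, and in Ugt2a1 WT replicate 4 was the lowest array and not among the highest. Ugt2a3 was well above background on 2 arrays of each genotype, and its groups overlapped, with values from −5.15 to −4.18.

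The Ugt1 family contains the enzymes for bilirubin and simple phenols, and the probes that represent its 3 genes on the array were all measured. For Ugt1a6a and Ugt1a6b these probes lie in the shared end of the locus. The probe of the shared end shown above read 5.13, 5.37, and 5.10 in WT and 5.36, 5.19, and 5.30 in Selenbp1-KO, a difference of 0.08 (SE 0.12). A second probe in the shared end, listed for Ugt1a6a, Ugt1a6b, Ugt1a7c, and Ugt1a10, read 6.77, 6.83, and 7.01 against 6.89, 6.82, and 6.97. Its difference was 0.03, with an interval from −0.25 to 0.30 for what is a sum over several Ugt1a transcripts. As the brightest probe named for Ugt1a6b, it stands for that gene in the gene counts and figures. By first exon, Ugt1a6b read −2.55, −2.25, and −2.57 in WT and −2.29, −2.57, and −2.42 in Selenbp1-KO. Ugt1a10 gave 2.03, 2.18, and 1.79 against 2.22, 1.93, and 2.06. These first exon probes differed by 0.03 (SE 0.14) and 0.07 (SE 0.15), and the groups overlapped in each. The probe named for Ugt1a6a, which is also listed for Ugt1a1, Ugt1a7c, and Ugt1a10, read −3.13, −2.98, and −2.97 against −3.00, −3.45, and −3.16, a difference of −0.18 (SE 0.15) with overlapping groups. It lies beyond the shared end probe shown above (chr1:90116514-90116573), so no probe here reads Ugt1a6a alone.

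Members of the Ugt3 family use sugars other than glucuronic acid, and the arrays of the genotypes overlapped for both. Ugt3a1 read 6.24, 6.26, and 6.23 in WT and 6.25, 6.14, and 6.32 in Selenbp1-KO, and its difference of −0.01 had an interval from −0.25 to 0.24. Ugt3a2 had 3 probes, all measured. The probe that represents the gene ranged from 6.86 to 7.06, with Selenbp1-KO replicate 2 lowest and WT replicate 3 highest (difference −0.04, SE 0.10). A probe across an exon junction differed by 0.00 (SE 0.14). The third, near background at −4.50 to −3.45, differed by 0.32 (SE 0.27), so its size did not match the other probes, although its interval, −0.35 to 0.99, contains their values.

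**Figure D3:**
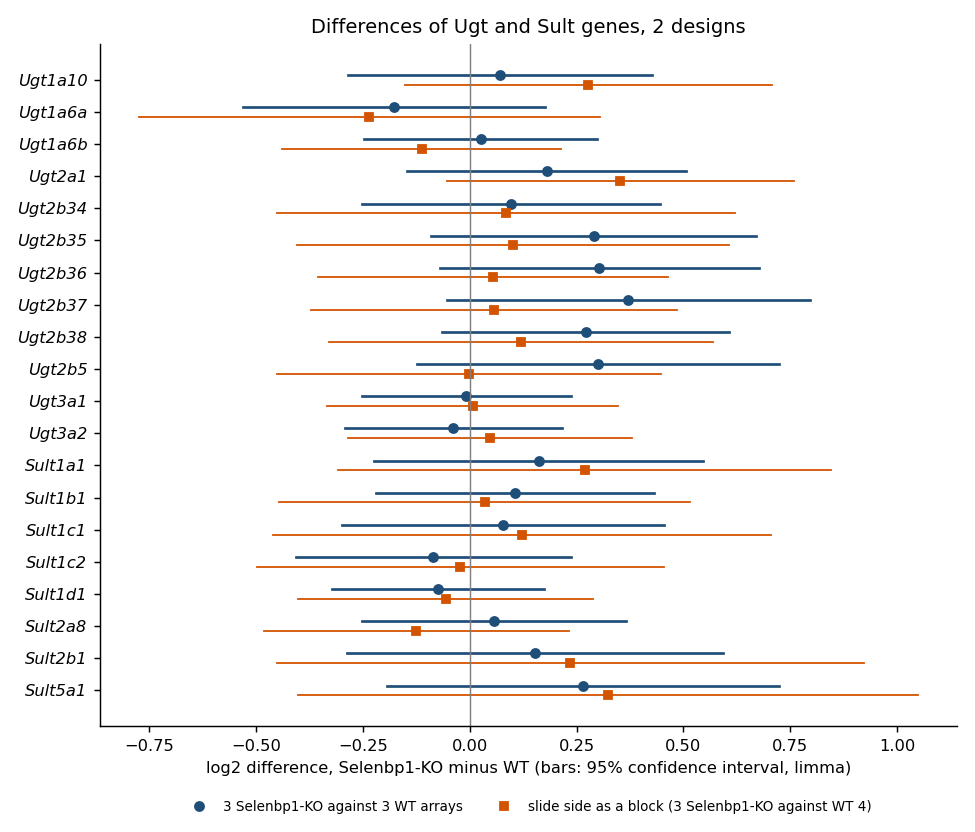
Log2 difference, Selenbp1-KO minus WT, with 95% confidence intervals from limma (x axis) for the 20 measured genes (y axis), from all 6 arrays (blue circles) and with slide side as a block (orange squares). All blue intervals include 0, and with the block the estimates of the 5 Ugt2b genes lie at 0.12 or below.

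The Sult1 family sulfates phenols, catecholamines, thyroid hormones, and estrogens, and 5 of its 6 genes were well above background. Sult1d1, a kidney enzyme that sulfates catecholamines, is shown with its probe (minus strand of mm9, chr5:87985008-87985067), because it was called after quantile normalization and not with the main scaling.
Sult1d1 probe: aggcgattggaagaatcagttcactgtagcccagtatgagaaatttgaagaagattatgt
This Sult1d1 probe read 5.39, 5.47, and 5.40 in WT and 5.40, 5.24, and 5.47 in Selenbp1-KO, a difference of −0.05 (SE 0.11). The other Sult1d1 probe read 5.85, 5.90, and 5.85 against 5.82, 5.68, and 5.86, a difference of −0.07 (SE 0.10, unadjusted p = 0.493 by limma). Selenbp1-KO replicate 2 was the lowest array on both probes, and the groups overlapped. After quantile normalization the latter probe differed by −0.19 with an unadjusted p of 0.0458 by limma, the 1 member called under that scaling. The probe shown, at −0.15, was not called.

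The remaining Sult1 genes also overlapped between the genotypes. Sult1a1, the main phenol sulfotransferase, read 2.35, 2.61, and 2.32 in WT and 2.45, 2.85, and 2.46 in Selenbp1-KO. Its 2 probes differed by 0.16 (SE 0.16) and 0.09 (SE 0.16), and the highest array was Selenbp1-KO replicate 2 on both. Sult1b1, which acts on thyroid hormones, read −0.52, −0.67, and −0.49 against −0.55, −0.57, and −0.24, a difference of 0.11 (SE 0.13). Its second probe was well above background on the 3 WT arrays and on 0 Selenbp1-KO arrays, with −4.52, −4.80, and −4.46 against −5.12, −4.47, and −4.80. The groups overlapped there too, the difference was −0.20 (SE 0.20), and the probes therefore disagreed in sign with neither called. Sult1c2 read 3.66, 3.61, and 3.54 against 3.45, 3.37, and 3.74 (difference −0.08, SE 0.13). Sult1c1 read −3.51, −3.59, and −3.62 against −3.62, −3.19, and −3.67 (difference 0.08, SE 0.15). In both genes Selenbp1-KO replicate 2 was an extreme array, the lowest for Sult1c2 and the highest for Sult1c1.

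Sult2 enzymes sulfate hydroxysteroids and bile acids, and 2 of their 9 genes were measured. Sult2a8 read −1.62, −1.57, and −1.32 in WT and −1.57, −1.38, and −1.39 in Selenbp1-KO, a difference of 0.06 (SE 0.13). Sult2b1, which sulfates cholesterol, read −2.07, −2.32, and −2.32 against −2.08, −1.79, and −2.39, a difference of 0.15 (SE 0.18). Both pairs of groups overlapped. Sult5a1, a member with little known function, read −3.32, −3.05, and −3.27 against −3.29, −2.65, and −2.92, a difference of 0.27 (SE 0.19, adjusted p = 0.486 by limma). Without Selenbp1-KO replicate 1 it was called, at 0.43 (unadjusted p = 0.0463 by limma). Its other 2 probes were not well above background on any array.

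The other 13 genes could not be measured on all arrays of a genotype, and the 2 calls among the members come from them. Sult1e1, the estrogen sulfotransferase, read −7.61, −5.28, and −7.18 in WT and −4.66, −4.95, and −5.52 in Selenbp1-KO. It was well above background on 1 WT array (replicate 3) and 1 Selenbp1-KO array (replicate 1), and WT replicate 3 lay above Selenbp1-KO replicate 3. The difference of 1.65 (SE 0.62, interval 0.13 to 3.17) had an unadjusted p of 0.0377 by limma (adjusted p = 0.275), and after quantile normalization it was 1.54 and not called. With normexp background correction the difference was 0.48, still called. The authors' normalized values (1.55), slide side as a block (2.14), the replicate block (1.21), and the methods' t-test each left it without a call. The call was also lost without WT replicate 2 (1.19), WT replicate 4 (1.40), Selenbp1-KO replicate 1 (1.46), or Selenbp1-KO replicate 2 (1.60). Sult1e1 is known from testis and fat, and the 6 fat markers fixed as a list (Adipoq, Lep, Plin1, Retn, Cidec, and Fabp4) had a summed log2 signal from 4.12 to 5.16 in WT and from 4.46 to 6.35 in Selenbp1-KO. Adipoq read 0.55, 1.05, and −0.62 in WT and 1.66, 2.70, and 0.19 in Selenbp1-KO, so WT replicate 3 and Selenbp1-KO replicates 1 and 2 were high for both Adipoq and Sult1e1. All 6 fat markers were above 0 in difference, 0 of 6 were called, and their part in the Sult1e1 result was not tested. In whole kidney RNA, more cells of a type and more RNA per cell cannot be told apart.

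Sult2a7 was the second call, at −7.54, −7.65, and −7.11 in WT and −7.06, −6.87, and −7.04 in Selenbp1-KO, well above background on no array. Its difference of 0.44 (SE 0.17, unadjusted p of 0.0401 by limma) was 0.06 after quantile normalization and not called there, and it lost the call when any array other than WT replicate 4 was left out (0.33 to 0.48). It belongs with 17 member probes that were well above background on no array, at −7.68 to −5.22. These read Sult2a1, Sult2a2, Sult2a3, Sult2a4, Sult2a5, Sult2a6, Sult2a7, Sult3a1, Sult4a1, Sult6b1, Ugt2b1, and 2 further probes of Sult5a1. Of the 16 tested, 14 had a difference above 0, with a median of 0.38, the same as over all probes with the flag on no array, and after quantile normalization the median was 0.01. These genes include the Sult2a enzymes known for bile acid sulfation in female liver and the brain enzyme Sult4a1.

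**Figure D4:**
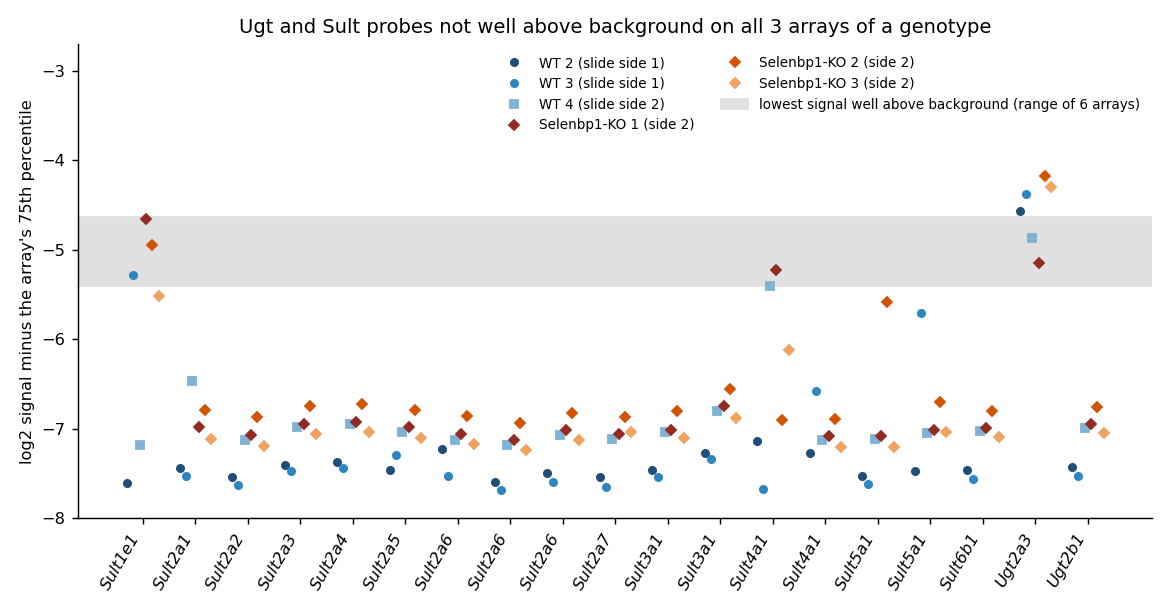
Log2 signal relative to the 75th percentile of the array (y axis) for each Ugt or Sult probe that was not well above background on all 3 arrays of a genotype (x axis), with symbols for the 6 arrays; the grey band spans the lowest signals well above background on the 6 arrays. Most probes lie near −7 with WT replicates 2 and 3 lowest, and of the genes shown only Sult1e1 and Ugt2a3 have arrays scored as well above background.

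Genes that supply the donors of both reactions were taken from a fixed list of 10. With the main scaling, 0 of 10 were called, where 5.65% of all measured probes were. All 10 were measured, 8 had a difference below 0, and the median was −0.08 beside 0.00 for all measured probes. Papss2, which makes PAPS, read 6.04, 5.93, and 6.06 in WT and 5.78, 5.79, and 5.90 in Selenbp1-KO. Ugdh, which oxidizes UDP-glucose to UDP-glucuronate, read 4.67, 4.75, and 4.80 against 4.60, 4.52, and 4.64. In both, every WT array lay above every Selenbp1-KO array, and 17.6% of all measured probes had groups apart in this way. The differences were −0.19 (SE 0.10) for Papss2 and −0.16 (SE 0.10) for Ugdh, with unadjusted p of 0.103 and 0.163 by limma. Slc35b2, which carries PAPS into the Golgi, read 3.03, 3.00, and 3.11 against 3.29, 3.16, and 3.27, a difference of 0.19 (SE 0.10). With Slc26a1, 4 of the 10 supply genes did not overlap. The second PAPS synthase, Papss1, differed by 0.01 (SE 0.11). Of the sulfate suppliers, the transporters Slc13a1 and Slc26a1 differed by −0.17 (SE 0.15) and −0.10 (SE 0.10), and sulfite oxidase (Suox) by −0.10 (SE 0.10).

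The calls among the supply genes depended on the scaling. After quantile normalization 5 of the 10 were called, 4 of them lower in Selenbp1-KO, where 9.10% of all genes were called and 3.86% were lower. Papss2 was then −0.30 (interval −0.45 to −0.15, unadjusted p = 0.00427, adjusted p = 0.365 by limma). Ugdh was −0.23 (interval −0.33 to −0.12, unadjusted p = 0.00309, adjusted p = 0.363), and Slc35b2 was 0.17 (unadjusted p = 0.00488, adjusted p = 0.372). The others were Slc26a1 at −0.11 and Suox at −0.16. None of the 5 passed the adjustment over all genes. Slc35b2 was higher in Selenbp1-KO in each of the 18 alternative settings, between 0.13 and 0.23, and was called in 5 of them. Papss2 and Ugdh were lower in each of the 18, between −0.30 and −0.15 and between −0.23 and −0.13. Papss2 and Ugdh were called in 6 and 4 of them. With slide side as a block they were −0.24 and −0.22, and neither was called (unadjusted p of 0.117 and 0.138 by limma).

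Genes that act after or beside conjugation showed 2 calls among 27, beside 8.00% of all genes, and neither passed the adjustment over all genes. Of 6 genes that remove conjugates or the by-product PAP, such as the glucuronidase Gusb (0.08, SE 0.11) and the phosphatase Bpnt1 (−0.02, SE 0.12), 0 were called. None of the 5 export carriers was called, and Abcc2, Abcc4, and Abcg2 differed by −0.17 (SE 0.12), −0.18 (SE 0.11), and −0.03 (SE 0.11). Abcc4 was called after quantile normalization, at −0.20 (unadjusted p = 0.0219 by limma). Of 7 related glycosyltransferases and sulfotransferases, 2 were called, both higher, where 6.87% of all genes were called higher. Tpst1, which sulfates tyrosines of secreted proteins, read −0.83, −0.84, and −0.89 in WT and −0.53, −0.30, and −0.66 in Selenbp1-KO. It rose by 0.36 (SE 0.12, unadjusted p = 0.0285, adjusted p = 0.275 by limma), with no overlap, and was called in 11 of 18 alternatives. Gal3st1, which makes the kidney lipid sulfatide, read 1.46, 1.44, and 1.51 against 1.58, 1.56, and 1.62, a difference of 0.12 (SE 0.09) that was called only after quantile normalization, in the authors' normalized values, and by the methods' t-test. Ust, a sulfotransferase of glycosaminoglycans and the other call, was well above background on no array, at −6.76 to −5.33, and was not called after quantile normalization. Of 9 genes of the aryl hydrocarbon receptor system, 0 were called: Ahr differed by 0.00 (SE 0.13), Arnt by −0.14 (SE 0.10), and Nqo1 by −0.04 (SE 0.15). Arnt, the partner of the receptor, had no overlap between the genotypes and was lower in each of 18 alternatives. It was called after quantile normalization at −0.15 (unadjusted p of 0.0242 by limma), in the authors' normalized values, and by the methods' t-test. The Arnt probe (chr3:95301081-95301140 of mm9) lies near the probe of the deleted gene Selenbp1 (chr3:94748621-94748680). Whether DNA linked to the altered allele has a part in the Arnt difference was not tested. Cyp1a1, a classical target, was well above background on 2 arrays of each genotype and spanned −5.92 to −4.12.

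**Figure D5:**
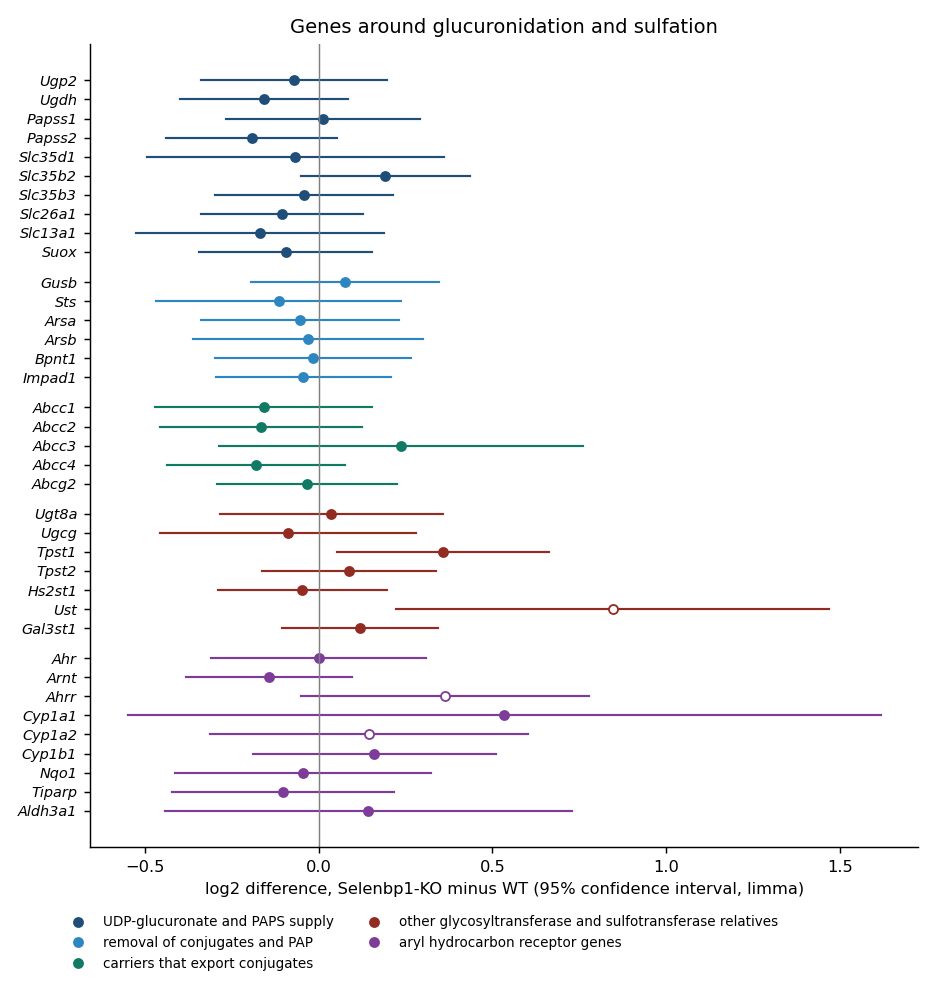
Log2 difference, Selenbp1-KO minus WT, with 95% confidence intervals from limma (x axis) for 37 genes around glucuronidation and sulfation (y axis), coloured by list; open symbols are well above background on no array. The intervals of Tpst1 and Ust lie above 0. Ugdh and Papss2 lie to the left of 0 and Slc35b2 to the right, all with intervals that include it.

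Markers of other cells are given beside these values. All 10 proximal tubule markers were well above background, as kidney tissue requires, 0 were called, and their summed log2 signal ranged from 10.12 to 10.45 in WT and from 10.31 to 10.36 in Selenbp1-KO. Among them, Slc7a13, an amino acid transporter of the last tubule segment, read 3.94, 3.81, and 4.78 in WT and 4.80, 4.44, and 4.36 in Selenbp1-KO, and Kap, an androgen-regulated kidney gene, read 8.38, 8.35, and 8.82 against 8.70, 8.83, and 8.67. WT replicates 2 and 3 were the 2 lowest arrays in both, as in the 5 Ugt2b genes, and in Aqp1, Miox, and Slc34a1, which makes 5 of the 10 markers, while Slc5a2 and Slc22a6 were highest on WT replicate 3. The 10 markers had a median difference of 0.02, with 5 above 0 and 5 below, and their part in the Ugt2b pattern was not tested. Of 7 macrophage markers 4 were called higher in Selenbp1-KO (Cd68, C1qa, C1qb, and Lyz2), where 6.87% of all genes were, with sums from 3.93 to 4.24 in WT and from 4.38 to 4.49 in Selenbp1-KO. Of 5 red blood cell markers 3 were called higher (sums 8.01 to 8.43 and 8.51 to 9.07), and of 5 glomerulus markers 1, Synpo, was. None of the 8 distal nephron, 6 liver, or 6 urothelium markers was called, nor any of 6 adrenal cortex markers, of which Cyp11a1, Cyp11b1, and Cyp11b2 were well above background on no array. The part of these marker differences in the Ugt and Sult values was not tested.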

How the data were processed

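Kidney RNA of 3 WT and 3 Selenbp1-KO mice was hybridized to 6 one-color Agilent arrays. The authors deposited the Feature Extraction output (version 9.5.1.1 in the processing notes): linear intensity values per spot, background-subtracted and not scaled between arrays, each with a detection p-value. Their quantile normalized intensities, also deposited, served as an alternative. Here log2 signals were set relative to the 75th percentile of each array, outlier spots were left out, and spots of a probe were averaged. Probes with detection p under 0.05 on at least 1 array (56097) were compared with limma 3.58.1 in R 4.3.3 (two-sided, unadjusted p under 0.05 as in the methods, Benjamini–Hochberg values beside it). Each gene was represented by its brightest tested probe. Coordinates of probes are those of the array files (mm9). Promoters and the other genes listed for a probe are from RefSeq (GRCm38.p6), which held the accessions of 41 of 46 probes. Alternatives changed background correction, scaling, filter, test, block, and arrays used.

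Values on each array are given for members well above background on every array of a genotype and for those with p under 0.05. Pathway genes are named where p was under 0.05 or where they had the highest signal of their list. Others, such as Ugdh, were named after their values were seen. The members and lists were chosen with earlier results of these data known. The number of arrays limits the precision.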

Additional observations from a re-analysis of the deposited data

How the results depend on the processing

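The counts of calls among the 46 probes and 33 genes were small and moved with the setting. Of the 33 genes, 2 were called (2 probes), with a median difference of 0.26, and of 37 pathway genes 2 were. Quantile normalization gave 1 probe, 1 gene, a median of 0.057, and 9 pathway genes, where 4697 of 56097 probes and 9.10% of all genes were called. The authors' normalized values gave 0 probes, 0 genes, a median of 0.057, and 9 pathway genes, where 4687 probes in all were called. Median scaling gave 10 probes and 8 genes, where 14616 of 56097 probes in all were called. Testing measured probes alone gave 0 probes, 0 genes, and a median of 0.10. With trend and robust estimates, limma gave 6 probes, 5 genes (Ugt2b35, Ugt2b36, and Ugt2b38 added), and 5 pathway genes, where 7536 of 56097 probes in all were called. The methods' t-test gave 0 probes, 0 genes, and 7 pathway genes, where 3978 probes in all were called. With slide side as a block there were 1 probe, 1 gene, a median of 0.065, and 1 pathway gene. Normexp background correction, no filter, keeping outlier spots, and averaging a gene's probes left these counts within 1.5 times. Leaving out 1 array gave 0 to 15 probes, 0 to 12 genes, medians of 0.16 to 0.35, and 0 to 2 pathway genes. The highest counts came without WT replicate 4, when 17585 of 56097 probes in all were called, 94.4% of them higher in Selenbp1-KO. In that fit 11 of the 45 member probes tested passed after adjustment. The share of all probes that passed there is not given here, so the 11 cannot be read as a result about the members. The cause of the higher counts was not tested. Of the called probes, 81.1% were higher in Selenbp1-KO, against 53.8% after quantile normalization and 37.3% in the slide side fit.

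Small differences turned sign. Ugt1a6b is given here by its brightest probe, which reads the shared end of several Ugt1a transcripts and not the Ugt1a6b first exon. Its difference was −0.020 with normexp, −0.060 with quantile normalization, −0.042 with the authors' values, and −0.11 with slide side as a block. Ugt1a6a was 0.0066 with normexp. With slide side as a block Sult2a8 was −0.12, Ugt2b5 −0.00080, Ugt3a1 0.0074, and Ugt3a2 0.048. With all probes of a gene averaged, Sult1b1 was −0.048 and Ugt3a2 0.096. Leaving out 1 array gave ranges across 0 for Sult1b1 (−0.0014 to 0.17), Sult1c1 (−0.072 to 0.17), Sult2a8 (−0.0012 to 0.15), Ugt1a10 (−0.032 to 0.16), Ugt1a6b (−0.026 to 0.094), Ugt3a1 (−0.050 to 0.042), and Ugt3a2 (−0.081 to 0.0081).

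Replicate numbers 2 and 3 occur in both genotypes, and no label says that they pair samples. Deviations from the genotype means correlated at 0.171 between both replicates 2 and at 0.187 between both replicates 3, over 28515 probes, and other pairs gave −0.326 to 0.186. With the replicate number as a block there were 12 probes, 9 genes, and 3 pathway genes called, where 18430 of 56097 probes in all were called. The median was 0.35, and Ugt1a10 was −0.11.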
